A study of Mus musculus with 13 samples.

Results

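Autosomal CpG methylation was compared between 2 kinds of mouse induced pluripotent stem cells (iPSCs) that should each carry a single X chromosome: 4 female libraries labelled XO (numbered 3, 5, 6 and 9) and 3 male libraries (numbered 1, 2 and 4), 7 of the 13 libraries of the series. They were chosen by their labels alone. All 7 were made by reduced representation bisulfite sequencing (RRBS) of genomic DNA from iPSCs freed of feeder cells. Strain, reprogramming method, passage and the line behind each library are not given in the labels. Nothing there says that libraries came from separate cultures, so the p-values below apply to these libraries only. Those for single tiles and windows from the model with all reads also depend on read counts and on a spread moderated over all tiles. The unit of measurement was the 1 kb tile on chromosomes 1 to 19, with at least 3 CpGs and 10 reads in each of the 7 libraries. There were 93578 such tiles. The level of a tile is the percent of its reads that were methylated.

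In mammals most CpGs carry methylation, while CpG-rich promoters are mostly free of it. Pluripotent mouse cells with a pair of active X chromosomes are known to hold less methylation than cells with a single one, which is why XO and XY lines make a control pair for X dosage. Imprinted control regions are an exception to both rules: they keep the methylation that came with the egg or the sperm on that parent's copy alone, so that they sit near the middle of the scale, and they are known to lose it in culture without regaining it. RRBS reads DNA cut at CpG-containing sites and therefore samples promoters, CpG islands and repeats more densely than the rest of the genome.

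The label XO was checked against read depth before any comparison. Relative to the male iPSC libraries, X depth was 1.03 in XO 6 and 1.13 in XO 5, but 1.29 in XO 3 and 1.32 in XO 9, close to the 1.31 and 1.37 of the 2 libraries of the series labelled XaXa (a pair of active X chromosomes). XO 3 and XO 9 thus went against a single X by this measure, and "XO" below means the label. Reads on Y were 0.0397% to 0.0468% of autosomal reads in the XO libraries and 0.0793% to 0.0906% in the male iPSC libraries. Among the fibroblast libraries used for reference, MEF 5 is labelled male but had an X depth of 1.32 and Y reads of 0.0219%. Depth on chromosome 11 was 1.19 in XO 6. On chromosome 8 it was 1.095 in male iPSC 4 and 0.939 and 0.934 in XO 6 and 9. The model described below called 6 tiles on chromosome 11 and 5 on chromosome 8, and a part of depth in these was not tested. Total CpG reads ran from 4784488 in XO 9 to 99546564 in XO 6, and the median tile held 22 reads in XO 9 and 486 in XO 6, with 41 to 270 in the male libraries.

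The mean tile level of XO 3, 5, 6 and 9 was 56.3%, 53.9%, 54.5% and 48.6%. In the male libraries it was 50.5%, 53.8% and 54.1%. The male values lay inside the range of the XO values. The group means were 53.3% ± 3.30 (SD, n = 4) and 52.8% ± 1.997 (SD, n = 3), 0.521 points apart, less than the SD of either group (exact two-sided permutation p = 0.743, where 0.0286 is the smallest p that 35 splits allow). On each of the 19 autosomes the XO mean was the higher one, by 0.148 to 1.02 points. Without XO 3 the difference was -0.475 points and without male iPSC 1 it was -0.629, so its sign rests on single libraries. The libraries XO 5 and 6 alone gave 1.37 points (exact permutation p = 0.4).

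**Figure D1:**
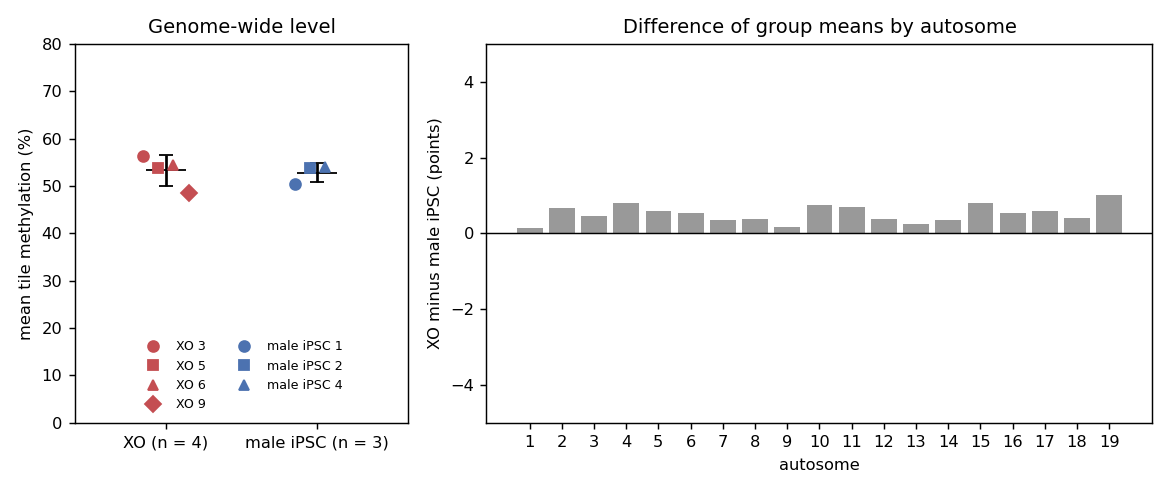
Left, mean methylation over 93578 tiles in each library (points), with the group mean and SD (black). Right, difference of the group means for each autosome in percentage points. Every bar is above 0 and none passes 1.02 points, while the XO libraries alone span 48.6% to 56.3%.

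Levels were close in each class of tile examined. Tiles under 20% in fibroblasts (18177) averaged 6.04% ± 1.28 in XO (SD, n = 4) against 5.11% ± 0.383 in male iPSC (SD, n = 3). Tiles above 80% in fibroblasts (32336) were at 71.4% ± 3.43 (SD, n = 4) and 70.9% ± 2.68 (SD, n = 3). Tiles at a promoter (11736 tiles of 9494 genes, 1000 bases before to 500 after a start) were at 6.94% ± 1.07 (SD, n = 4) and 6.46% ± 0.318 (SD, n = 3). In each class the difference was below the larger SD of the pair. Over 10196 tiles with 50 reads in every library, the mean absolute difference between 2 libraries was 3.83 to 6.44 points within XO, 3.63 to 4.23 within male iPSC and 3.55 to 5.91 between the groups. Pairs across the groups were thus no further apart than pairs of XO libraries.

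Against this level background, single loci were sought that did differ. In 2129 tiles all 4 XO libraries lay above all 3 male libraries by at least 10 points between the means (2.28% of tiles), and in 1133 they lay below (1.21%). Without XO 9 the first number was 4916 and without male iPSC 4 it was 6086. Without male iPSC 1 the second was 3649, and without XO 3 it was 2393. With the 7 libraries in random order, all 4 XO libraries would lie above in a share of 0.0286 of tiles, whatever the difference. The share below would be the same, and both shares rise when a library is left out. The model with all reads called 44 tiles higher (0.047%) and 10 lower (0.0107%) in XO, together 0.0577% of tiles, at an adjusted p under 0.05 and at least 10 points. In that model 12.6% of all tiles had an unadjusted p under 0.05, and deep libraries weigh most. On simulated reads, where some tiles were given a difference, it also made calls in tiles left unchanged. The 54 calls therefore serve here as a ranked list of candidates. When reads were scaled to at most 100 per tile and library, 1 tile was called (0.00107%), on chromosome 6, with 7882 tiles (8.42%) at an unadjusted p under 0.05. When limma gave each library equal weight, 0 were called (0%), with 5219 tiles (5.58%) at an unadjusted p under 0.05 and all 54 among them. The number of higher calls was 1 without XO 6 or without male iPSC 4, 5 with XO 3 and 9 left out and 0 with XO 3, 5 and 9 left out. When very deep CpGs were left out, 0 tiles were called in either direction.

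The calls were scattered. The 44 higher tiles lay on 17 chromosomes and no pair was closer than 593 kb. Of the 54, 51 kept the groups apart, and 9 were promoter tiles, as were 11736 of all 93578. The model called 0.0767% of promoter tiles and 0.055% of the others. In the 44 higher tiles the median level was 40.6% to 50.2% in the XO libraries and 17.3% to 22.4% in the male ones. All 44 also differed by at least 10 points when XO 5 and 6 alone stood for the group, and 43 with XO 6 alone. In the 10 lower tiles the medians were 29.7% to 40.2% and 62.2% to 72.8%. Because these values chose the tiles, they describe the list and test nothing.

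Libraries that played no part in the calls show what else these tiles hold. The 44 higher tiles were at a median of 49.1% in MEF 4, 73.0% in MEF 5, 61.5% in the SSEA1 negative and 73.1% in the SSEA1 positive library, both taken during male reprogramming. XaXa 7 and 8 had medians of 31.7% and 19.6%. Because the tiles were picked for low male and high XO levels, their distance from these libraries is partly fixed by that choice and is not compared between the groups. The 10 lower tiles were at 65.3% and 76.8% in MEF 4 and 5 and at 18.7% and 13.1% in XaXa 7 and 8. On tiles at 80% or more in both fibroblast libraries and 10% or less in both XaXa libraries (319 tiles, picked without the iPSC libraries compared here), levels were 16.4%, 16.1%, 18.2% and 10.6% in XO and 13.3%, 14.5% and 17.1% in male iPSC, which overlap.

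Among the called tiles with at least 5 CpGs, the locus with the widest gap below male iPSC was the promoter of Mcts2, an imprinted retrogene that sits in an intron of H13 and is methylated on the maternal copy. Its sequence is given because the CpGs that differ lie in it, beside those of Zrsr1 and Plagl1, also imprinted, and of Sox2, whose difference lies outside its promoter. Each is the 250 bases before a start, taken from RefSeq (GRCm38.p6) and placed on mm9 by its CpGs at chr2:152512634-152512883, chr11:22871755-22872004, chr10:12810388-12810637 and chr3:34548667-34548916, all on the plus strand. Capitals mark the CpGs read in each of the 7 libraries, 9 of 20 in Mcts2, 2 of 8 in Zrsr1, 3 of 19 in Plagl1 and 5 of 27 in Sox2.
Mcts2: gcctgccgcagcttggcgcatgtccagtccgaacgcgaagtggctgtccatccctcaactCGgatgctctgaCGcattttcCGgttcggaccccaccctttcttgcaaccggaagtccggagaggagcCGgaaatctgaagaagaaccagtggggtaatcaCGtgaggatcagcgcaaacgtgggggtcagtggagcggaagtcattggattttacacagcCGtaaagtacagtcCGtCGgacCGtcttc
Zrsr1: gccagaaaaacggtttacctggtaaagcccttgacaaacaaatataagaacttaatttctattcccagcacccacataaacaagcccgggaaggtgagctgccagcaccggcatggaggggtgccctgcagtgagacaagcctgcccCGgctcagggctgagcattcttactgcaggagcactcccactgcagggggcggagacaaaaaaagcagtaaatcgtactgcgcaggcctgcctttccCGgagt
Plagl1: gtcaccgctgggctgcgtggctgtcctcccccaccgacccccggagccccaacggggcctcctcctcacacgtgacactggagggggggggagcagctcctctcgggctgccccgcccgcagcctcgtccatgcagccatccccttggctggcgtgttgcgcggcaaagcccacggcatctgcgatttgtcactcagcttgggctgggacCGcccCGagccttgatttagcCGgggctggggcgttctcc
Sox2: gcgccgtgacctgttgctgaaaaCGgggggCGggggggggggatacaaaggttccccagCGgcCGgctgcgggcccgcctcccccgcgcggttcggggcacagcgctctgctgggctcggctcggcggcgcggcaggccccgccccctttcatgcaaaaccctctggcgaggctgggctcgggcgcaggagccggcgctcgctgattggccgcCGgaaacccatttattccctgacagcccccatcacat

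The Mcts2 tile (chromosome 2, CpGs from 152512522 to 152512953) was at 2.23%, 10.3%, 0.402% and 0% in XO 3, 5, 6 and 9. It was at 47.8%, 44.0% and 58.4% in male iPSC 1, 2 and 4. All XO libraries were low, all male ones were near the middle, and the groups were far from overlapping. The zero in XO 9 rests on 26 reads and allows up to 11.5%, and the highest XO value has a 95% Wilson interval of 7.54% to 13.95% from 349 reads. Such limits and intervals cover counting error only. The group means were 3.24% ± 4.82 (SD, n = 4) and 50.1% ± 7.49 (SD, n = 3), a difference of -46.8 points (quasi-binomial model, adjusted p = 0.035). The adjusted p was 0.101 with reads scaled to 100 and 0.711 with limma. Of the 10 CpGs read in all 7 libraries, 9 kept the groups apart. In the printed stretch 8 of 9 did, and the exception, 29 bases before the start, was at 0% in male iPSC 2. XO 9 had a single read at each of the 10 CpGs except those 122 and 89 bases before the start, where it had 9. At the CpGs with a single read in XO 9, male iPSC 2 had 3 to 6 reads. The CpGs 122 and 89 bases before the start were lower in male iPSC than the rest, at 26.1% and 27.6%. Fibroblasts were at 53.1% and 71.9%, and both XaXa libraries near the XO ones at 1.76% and 2.07%. The motif TGCCGC, the core that the imprint-protecting zinc finger protein ZFP57 is known to bind when methylated, was searched on both strands in this window of 12 promoters, most of them at imprinted genes. It occurs once in 4 of them (Mcts2, Plagl1, Sox2 and Meg3) and not in Zrsr1, Zdbf2, Nnat, Snrpn, Inpp5f, Grb10, Igf2r or Gnas. Of the 32851 promoters in the table, 8.68% hold it in the same window. For Inpp5f, Grb10, Igf2r and Gnas the searched stretch lies outside the imprinted windows described below, so absence of the motif says nothing about those windows. The Zdbf2 stretch was at 0% to 1.72% in the 7 libraries.

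**Figure D2:**
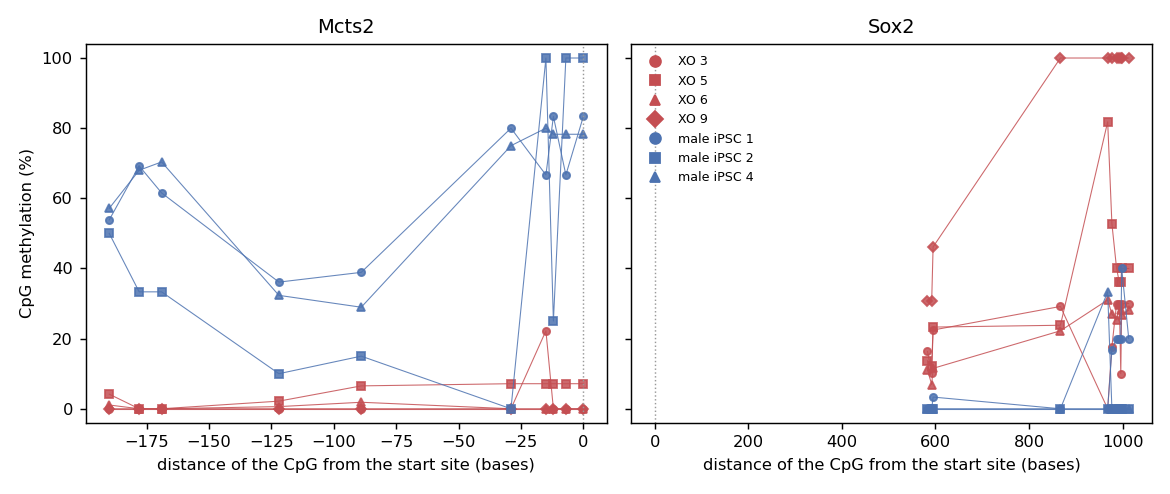
Methylation of single CpGs (percent) in the Mcts2 and Sox2 tiles by distance from the start site in bases, for CpGs read in all 7 libraries. Each line is a library, XO in red and male iPSC in blue. At Mcts2 the XO lines stay low and the male lines are mostly higher, while at Sox2 most XO points lie above the male ones beyond the start. The points of XO 9 at 100% in Sox2 rest on 1 or 2 reads each.

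Mcts2 was not alone among imprinted regions. Of 25 windows placed at such regions, 22 had enough reads, and 20 of these had a lower mean in XO. Their median difference was -22.3 points, where the median over all tiles was 0.142. Differences of -15 points or beyond were found in 16 of 22 windows and in 1.42% of tiles. The mean over the windows was 28.8%, 20.8%, 45.0% and 25.3% in XO 3, 5, 6 and 9, and 60.6%, 54.7% and 46.0% in male iPSC 1, 2 and 4. No XO library reached the lowest male one, but XO 6 and male iPSC 4 were about 1 point apart. The group means were 29.99% ± 10.5 (SD, n = 4) and 53.8% ± 7.31 (SD, n = 3), a difference of -23.8 points. Windows under 20% numbered 12, 13, 3 and 12 in XO 3, 5, 6 and 9 and 1, 2 and 4 in the male libraries. The 3 XO libraries with low windows were also those with the higher X depth given above, and a part of X copy number in this difference was not tested. XO 5 and 6 alone gave -20.8 points, and XO 6 as the sole XO library gave -8.72 points.

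In the model fitted over tiles and windows together 1 of the 22 windows was called, Mcts2 (adjusted p = 0.0322), and 7 had an unadjusted p under 0.05. Over all tiles that model called 0.0577%, and 12.6% had an unadjusted p under 0.05. Of the 7, Gnas 1A was higher in XO (3.32 points) and the others, Gpr1, Mcts2, Inpp5f v2, Mest, Cdh15 and Peg13, were lower. In 6 windows every XO library was below every male one, and in 0 every one was above, where 1.21% and 2.28% of tiles kept the groups apart downward and upward by at least 10 points. The 6 were Gpr1, Mcts2, Inpp5f v2, Mest, Zrsr1 and Airn/Igf2r, all known to be methylated on the maternal copy. In each of the 6, XaXa 7 and 8 were below every male library as well. They were at 25% and 3.67% at Gpr1, 1.71% and 2.06% at Mcts2, and 6.9% and 12.6% at Inpp5f v2. At Mest they were at 22.4% and 18.2%, at Zrsr1 at 13.3% and 8.87% and at Airn/Igf2r at 15.2% and 15.1%. Low levels at these windows were thus not limited to the XO label. Over all tiles the median was 36.7% in XaXa, 67.5% in XO and 66.7% in male iPSC.

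Gpr1, a window within a gene next to the paternally expressed Zdbf2 (chromosome 1, 63247011 to 63247155), had the widest gap. It was at 4.55%, 1.29%, 34.2% and 6.67% in XO 3, 5, 6 and 9, against 70.1%, 77.8% and 67.1% in male iPSC. All XO libraries were below, XO 6 by the least. The difference was -60.0 points (quasi-binomial model, adjusted p = 0.125), and only 3 CpGs with 15 to 814 reads stand behind it. MEF 4 and 5 and both SSEA1 libraries were at 100% in the Gpr1 window, not at the middle level described above for imprinted regions. At Inpp5f v2, an imprinted variant transcript started inside Inpp5f (chromosome 7, 135831094 to 135832208), the XO values were 14.3%, 1.79%, 37.7% and 0%, the last from 19 reads, which allow up to 15.8%. The male values were 80.6%, 48.1% and 65.1%. XO 6 was again the highest of its group and still below all male libraries (adjusted p = 0.184).

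At Mest, which encodes a hydrolase-like protein (chromosome 6, 30684329 to 30689333), XO 3 and 5 were at 9.32% and 9.01% and XO 6 and 9 at 41.2% and 42.3%. The male libraries held 66.4%, 60.3% and 55.2%. The window thus split the XO libraries into a low and a middle pair, and here XO 9 went with XO 6. Zrsr1, an imprinted retrogene for a splicing factor (chromosome 11, 22871841 to 22874252), was at 5.10%, 7.67%, 41.2% and 18.7% in XO and at 51.7%, 57.6% and 41.7% in male iPSC. XO 6 and male iPSC 4 differed there by less than a point. In the printed Zrsr1 promoter the CpG nearest the start was at 0%, 8.51%, 38.9% and 23.1% in XO 3, 5, 6 and 9. It was at 50%, 21.4% and 53.7% in male iPSC 1, 2 and 4, so the groups overlapped. Of the 2 CpGs capitalised in that promoter, 0 kept the groups apart. Airn, the noncoding RNA that silences Igf2r in cis (chromosome 17, 12934456 to 12935913), gave 4.85%, 10.3%, 43.9% and 31.3% against 61.9%, 59.9% and 46.7%, with the XO libraries in the same order.

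At other maternal imprints the groups overlapped. XO 6 reached the male range at Grb10, Snrpn, Peg3, Nap1l5, Nnat and Nespas. Grb10, a brake on growth factor signalling (chromosome 11, 11925589 to 11926883), was at 15.3%, 15.5%, 59.8% and 37.0% in XO and at 73.4%, 54.4% and 70.9% in male iPSC. Snrpn, whose human counterpart lies at the Prader-Willi imprinting centre (chromosome 7, 67149536 to 67150114), was at 1.03%, 5.14%, 37.8% and 18.9% in XO and at 53.2%, 45.2% and 17.4% in male iPSC. Male iPSC 4 was there below XO 6 and XO 9. Peg3, Nap1l5, Nnat and Nespas had differences between -31.4 and -20.5 points with overlapping groups. The Plagl1 window overlapped through XO 3 while XO 6 stayed below every male library (77.9%, 34.8%, 41.9% and 21.4% against 61.5%, 73.3% and 56.9%), and of the 3 CpGs capitalised in its promoter, 2 had group means within 2 points of each other. Peg10, Slc38a4, Cdh15 and Peg13 overlapped as well, with differences of -26.9, -17.3, -14.3 and -7.61 points. At Cdh15 and Peg13 XO 6 (60.1% and 54.5%) was again below every male library, and male iPSC 4 stood at 1.08% in Slc38a4. Gnas 1A was low throughout, at 9.58% ± 4.64 (SD, n = 4) and 6.25% ± 1.44 (SD, n = 3). Some of these windows were off the middle in fibroblasts too. In MEF 4 and 5, Plagl1 was at 0% and 42.3%, Peg10 at 0% and 49.0% and Nap1l5 at 97.3% and 82.4%.

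Regions methylated on the paternal copy were mixed. Rasgrf1 (chromosome 9, 89768538 to 89773152) was at 70%, 60.9%, 66.4% and 44.4% in XO and 64.2%, 67.6% and 62.9% in male iPSC, with overlapping groups and a difference of -4.47 points. Zdbf2 was 7.79 points higher in XO. The intergenic region between Dlk1 and Meg3, which controls that domain, was at 41.9%, 20.97%, 94.1% and 75% in XO and at 100% in male iPSC 1 and 2 but 32.7% in male iPSC 4. Meg3 followed it, at 26.4% in male iPSC 4 and at 76.2% and 84.9% in the other male libraries. The spread inside each group there was as wide as the gap between groups. Whether maternal and paternal regions differ was not tested.

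**Figure D3:**
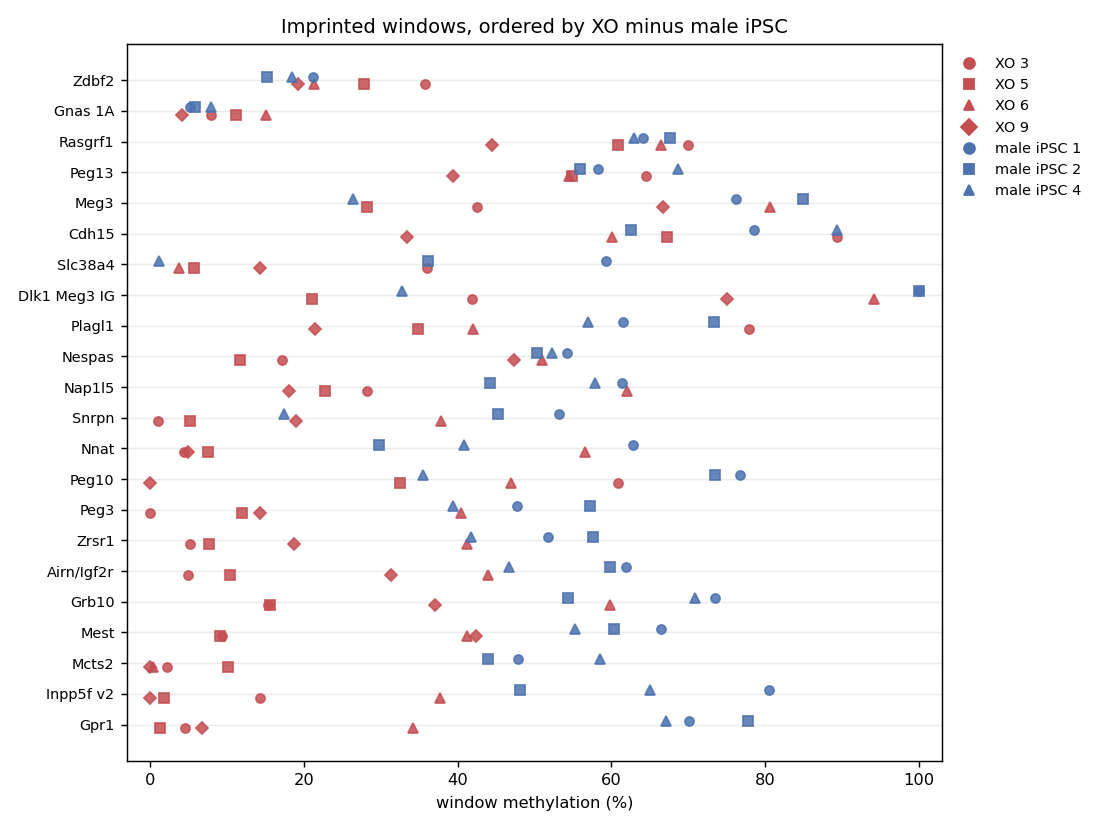
Methylation (percent) of 22 imprinted windows in each of the 7 libraries, XO in red and male iPSC in blue, ordered by the difference of group means. From Gpr1 at the bottom upward, XO 3, 5 and 9 all lie left of the male libraries in 11 of the 22 windows and XO 6 does so in 9, and at the top (Zdbf2, Gnas 1A, Rasgrf1) the groups mix.

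**Figure D4:**
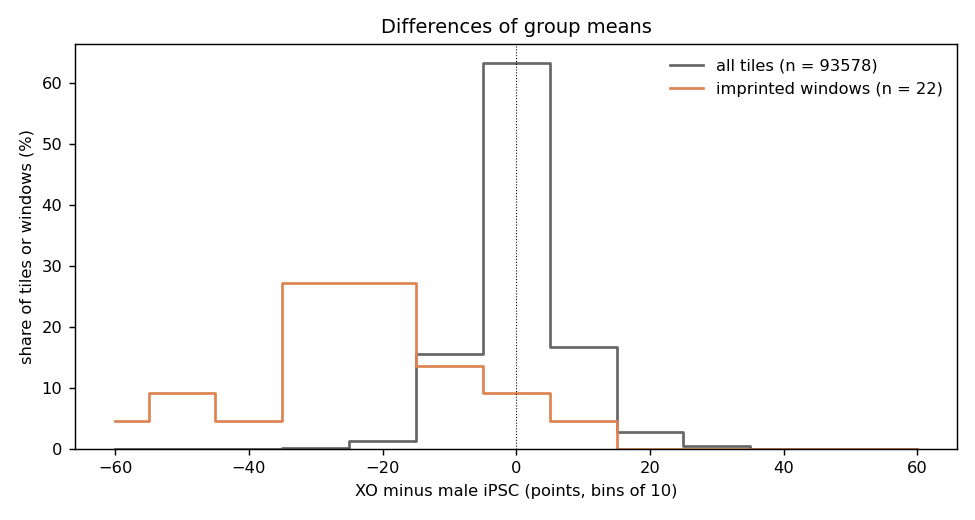
Distribution of the difference of group means (XO minus male iPSC, percentage points, bins of 10) over all 93578 tiles (grey) and 22 imprinted windows (orange), as a share of each. The tiles peak in the bin around 0, which holds 63.2% of them, and the windows in the bins around -30 and -20, which hold 27.3% each.

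The remaining lower tiles lay mostly outside promoters. A tile 4.05 kb before Xbp1, a transcription factor of the unfolded protein response (chromosome 11, 5416184 to 5416997), was at 40.0%, 29.9%, 38.8% and 47.1% in XO and 67.2%, 74.2% and 79.1% in male iPSC. The groups were well apart, by -34.6 points between means (adjusted p = 0.0426), and XaXa 7 and 8 were lower still at 15.6% and 3.38%. A tile just inside Rmi1, a partner of the BLM helicase whose start lies beside that of Hnrnpk (chromosome 13, 58504129 to 58504931), was at 2.67%, 1.81%, 0.197% and 0% in XO and 14.01%, 12.9% and 15.3% in male iPSC. It is a case of low methylation present in male iPSC and close to absent in XO (-12.9 points, adjusted p = 0.0418), and the zero in XO 9 is out of 60 reads. Of its 17 CpGs read in all 7 libraries, 4 kept the groups apart, and many had a single read in some library. XaXa was at 0.885% and 0.519% and fibroblasts at 6.95% and 2.15%.

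Some called tiles came with uneven depth. A read share more than 2-fold apart between groups was found in 7 of the 54 called tiles (13%) and in 1.02% of all tiles, and its part in the calls was not tested. Of the 7, 3 were lower in XO. The share of reads falling on the tile on chromosome 19 (12288546 to 12288715) was 0.163 times as high in XO as in male iPSC, on chromosome 15 between Cbx6 and Cbx7 (79726097 to 79726702) 0.399 times and on chromosome 5 (88836179 to 88836434) 0.229 times. The last has 3 CpGs and is named after its values were seen. Their differences were -24.6, -14.1 and -36.2 points, and -20.3, -11.0 and -23.2 points when each CpG read in all 7 libraries weighed the same. On chromosome 8 between Aadat and Mfap3l (63070158 to 63070715) the read share was 0.569, and a difference of -22.0 points became -4.13 with that weight. Tiles that filled the list of lower loci without passing the test lay near Gm10433, in the promoter of Slc25a4, near Tmem130 and between Nipsnap2 and Psph, with differences of -24.3, -12.7, -28.6 and -37.0 points and adjusted p from 0.0531 to 0.0666.

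Of the higher tiles, the one with the lowest p lay on chromosome 6 between Mad2l1 and Gng12, 154 kb from the nearer start (66692369 to 66692740). XO 3, 5, 6 and 9 were at 85.03%, 84.5%, 84.7% and 80.6%, and male iPSC 1, 2 and 4 at 37.3%, 39.9% and 40.3%. The groups could hardly be further apart for their spread (44.6 points, adjusted p = 8.52e-05, and 0.0245 with reads scaled to 100). Yet its read share in XO was 0.157 times that in male iPSC, and with equal weight per CpG the difference was 15.7 points. Of its 8 CpGs, 2 kept the groups apart and went opposite ways: the one at 66692372 was higher in XO, and the one at 66692587 was lower, at 50% to 76.1% in XO and 78.6% to 92.1% in male iPSC. At the CpG at 66692372 male iPSC 1, 2 and 4 had 323, 114 and 760 reads and levels of 5.57%, 4.39% and 5.79%, while XO 3, 5, 6 and 9 had 17, 20, 90 and 2 reads and levels of 70.6%, 80%, 78.9% and 50%. The CpG at 66692380 differed by 56.4 points, but XO 9 was at 0% there from 2 reads. XO 3, 5 and 6 were at 88.2%, 85% and 76.7% at that CpG and male iPSC at 5.17% to 7.34%. With very deep CpGs left out the tile differed by -3.14 points. A tile on chromosome 18 (86235613 to 86235871) was like it, with a read share of 0.0859 and a difference of 32.5 points. Only 1 of its CpGs was read in all 7 libraries, with a single read in XO 9, and that CpG differed by -9.96 points. A tile on chromosome 1 (179900012 to 179900149) had a read share of 0.309, and 1 of its 6 CpGs kept the groups apart. At each of the CpGs at 179900102 and 179900110, XO 9 had 1 read and a level of 0%. XO 3, 5 and 6 were there at 75.8% to 100% and male iPSC at 5.77% to 10.7%. The remaining higher tile with uneven depth, on chromosome 16 (15223146 to 15223398), had a read share of 0.109 and is named after its values were seen.

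In the higher tiles without such imbalance, the share of CpGs that kept the groups apart varied. On chromosome 13, 30.3 kb from H3c6 in a histone gene cluster (23684104 to 23684965), XO was at 85.9%, 75.4%, 81.7% and 77.5% and male iPSC at 39.5%, 49.0% and 46.3%. The groups were 35.2 points apart (adjusted p = 0.00975), 7 of 8 CpGs kept them apart, and equal weight per CpG gave 30.9 points. On chromosome 15 between Creld2 and Pim3, a survival kinase gene (88663031 to 88663340), XO was at 64.9%, 50.4%, 51.5% and 46.2% and male iPSC at 11.95%, 21.6% and 16.2%. That gap of 36.7 points (adjusted p = 0.0271) held in 4 of 5 CpGs. XaXa 7 lay between the groups at 40.6%, XaXa 8 inside the male range at 17.8%, and fibroblasts were at 49.0% and 67.0%. Tiles on chromosome 12 (21170262 to 21170415), 5 (128740143 to 128740455), 17 near Rps6ka2 (7432224 to 7432737) and 9 between Cmtm6 and Cmtm7 (114668081 to 114668970) were higher in XO by 35.6, 30.9, 29.4 and 29.3 points. Adjusted p for these 4 lay between 0.0203 and 0.0477. The groups were kept apart in 4 of 5 CpGs of the chromosome 12 tile, 1 of 5 on chromosome 5, 3 of 8 on chromosome 17 and 3 of 6 on chromosome 9. At the last, a cluster of chemokine-like genes, male iPSC stood at 27.6%, 27.7% and 27.4%, almost the same value, and fibroblasts at 92.5% and 91.4%.

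**Figure D5:**
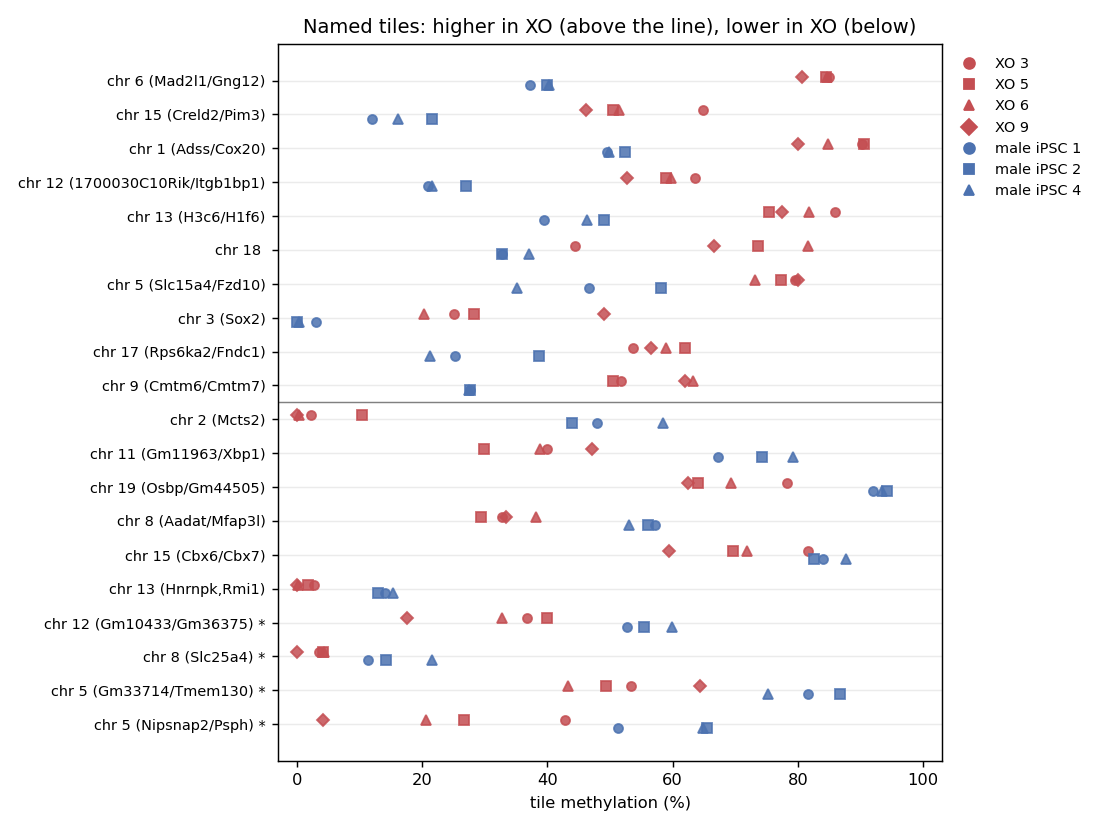
Methylation (percent) in each of the 7 libraries at 10 tiles higher (above the line) and 10 lower in XO (below it), named by chromosome and by the promoter they overlap or the nearest placed promoters. Stars mark 4 tiles that did not pass the test. XO is in red and male iPSC in blue, and the groups do not overlap in any of the 20, which the rule for naming them required.

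Called promoter tiles outside these lists of 10 were picked out after their values were seen. A tile at the start of Ufsp2, a protease that acts on the modifier UFM1 (chromosome 8, 47061112 to 47061426), was at 56.8%, 35.6%, 53.7% and 27.8% in XO and at 11.1%, 14.3% and 8.92% in male iPSC. Every XO library was above every male one, although the XO values spread widely and only 3 CpGs were read (adjusted p = 0.0498). A tile at Mpnd, which encodes an MPN domain protein (chromosome 17, 56149022 to 56149930), stood at 55.1%, 58.3%, 57.6% and 50% against 29.8%, 29.4% and 30.2%, where fibroblasts were at 96.7% and 91.0%. Mcrip1 (chromosome 11, 120411003 to 120411810) and Kcnd3os (chromosome 3, 105256113 to 105256615) were higher in XO by 11.2 and 10.8 points, and by 6.69 and 7.97 points with equal weight per CpG. Going the other way, a tile at 1700010I14Rik (chromosome 17, 9181127 to 9181485, 4 CpGs) was at 2.74%, 16.3%, 5.84% and 4% in XO and at 37.5%, 37.5% and 50.2% in male iPSC. Of its 4 CpGs, 1 kept the groups apart. The tile was low in XaXa (4.08% and 1.45%) and in fibroblasts (5.13% and 10.96%) as well. The SSEA1 negative and positive libraries were at 11.5% and 28.7%, so that the male iPSC libraries stood above every other library of the series there.

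Promoter tiles of 4 gene lists are set here against all tiles, of which 0.047% were called higher and 0.0107% lower in XO and 12.6% had an unadjusted p under 0.05. For 18 pluripotency genes, 10 had a promoter tile. Of their 14 tiles, 4 had an unadjusted p under 0.05 (Sox2, Pou5f1 and a pair at Klf4) and 2 were called higher in XO, at Sox2 and Klf4, which encode reprogramming factors. Both called tiles lie on the gene's side of the start. The Sox2 tile (chromosome 3, 34549218 to 34549930) was at 25.1%, 28.3%, 20.2% and 49.1% in XO and at 3.09%, 0% and 0.318% in male iPSC. The male libraries were close to unmethylated, the zero being out of 134 reads and allowing up to 2.24%, and all XO libraries were far above them (29.5 points, adjusted p = 0.0477). Of the 11 CpGs of this tile read in all 7 libraries, 8 kept the groups apart. At those from 34549784 onward XO 9 was at 100% from only 1 or 2 reads. Male iPSC 1 was at up to 40% there, at 34549915 from 5 reads. At the printed Sox2 promoter none of the 7 libraries exceeded 0.963%, although XO 9 had 5 reads there. At Klf4 (chromosome 4, 55544146 to 55544901) XO was at 14.2%, 12.3%, 12.3% and 4.30% and male iPSC at 0%, 0% and 0.315%, from 93 to 2567 reads. The difference of 10.7 points (adjusted p = 0.00557) was 3.66 points with equal weight per CpG, and 0 of the 15 CpGs read in all 7 libraries kept the groups apart. At the CpG with the widest difference (55544547) XO 3, 5 and 6 were at 22.9%, 26.9% and 30.2% and all male libraries at 0%. XO 9 was at 0% there from 5 reads, and male iPSC 2 had 2 reads. In the 250 bases before the Klf4 start XO 3, 5 and 6 were at 12.5% (8 reads), 0% and 0.465% and male iPSC 4 at 0%, while male iPSC 1 and 2 and XO 9 had no reads. XaXa was at 2.16% and 0.958% in the Sox2 tile and at 0.407% and 0.790% in the Klf4 tile. The Pou5f1 tile on the gene's side of its start was at 74.7%, 46.4%, 46.1% and 31.8% in XO and at 11.8%, 16.4% and 11.3% in male iPSC, apart but not called (adjusted p = 0.0614), and in the 250 bases before its start all 7 libraries were at 0%, from 3 to 51 reads. Since the labels do not give the reprogramming method, reads from the cells' own copies of these 3 factor genes and from any added copies cannot be told apart. The read shares of the Sox2 and Klf4 tiles in XO were 1.45 and 1.196 times those in male iPSC. The other 11 tiles, among them those of Tet1, Tet2, Zfp42, Fgf4 and Esrrb, differed by -4.62 to 0.73 points.

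Promoters of germline genes, which are normally methylated in somatic cells and are sensitive to loss of methylation, were measured for 14 of 20 genes in 19 tiles, with 0 called and 4 at an unadjusted p under 0.05. Of the 4, Hormad1 and Asz1 were lower and Dmrtb1 and a Dazl tile higher in XO. The median difference of the 19 tiles was -1.59 points. Hormad1, a meiotic chromosome axis gene, had the widest difference, with 51.3%, 41.1%, 44.2% and 28.1% in XO and 61.9%, 65.4% and 60.8% in male iPSC. Its groups were apart but not called (-21.5 points, adjusted p = 0.0754). Dazl and Ddx4, germ cell RNA-binding proteins, overlapped at 27.5% and 26.8% in the denser Dazl tile and at 22.4% and 26.1% in Ddx4 (XO and male iPSC means). The other Dazl tile had the widest positive difference of the list, at 91.4% and 78.7% (12.7 points), and overlapped too. For the methylation machinery, 7 of 10 genes were measured in 11 tiles and all were low in both groups. Dnmt1, Dnmt3a, Dnmt3b, Tet3, Tdg, Uhrf1 and Usp7 differed by -1.65 to 1.33 points, with 0 called and 1 at an unadjusted p under 0.05. Fibroblast genes were measured at 3 of 12 (Twist2, Vim and Col1a2) in 5 tiles, with 0 called, 3 at an unadjusted p under 0.05 and differences of -0.78 to 9.01 points.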

How the data were processed

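The files deposited by the authors hold per CpG a count of total and of methylated reads, not normalised, and the fraction methylated, per the file headers. The deposited fraction was checked against the counts and left unused. The submitters' processing notes name BSMAP and the build mm9. Versions and other settings were not given in the sources used. PCR copies cannot be told apart without molecular identifiers, and 1 read can cover several CpGs of a tile. Coordinates are mm9, from 1.

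Reads were summed over 1 kb tiles (at least 3 CpGs and 10 reads in each of the 7 libraries) and over windows at imprinted regions placed from general knowledge. Tiles and windows entered a single quasi-binomial fit with the group as its only term. That fit compares levels pooled over the reads of each group, while the printed differences are between unweighted means of library levels. The dispersion was moderated with squeezeVar of limma, with a floor of 1, and F tests were adjusted by the Benjamini-Hochberg method. The model was tested on simulated data, where it made calls in unchanged tiles, so the fits with reads scaled to 100 and with limma on log2 ratios (pseudocount 1) are given beside it. Library means were compared by exact permutation. Named tiles are, per direction, the 10 called ones with the widest difference among those with 5 CpGs and no overlap, filled up with those of lowest p. Members, windows, gene lists and this rule were chosen with earlier results of these data known. RefSeq promoters (GRCm38.p6) were placed on mm9 by the spacing and neighbouring bases of their CpGs: 13116 of 32851 were placed, so distances refer to placed starts only. Versions were R 4.3.3, limma 3.58.1 and Python 3.11.15 with scipy 1.17.1, pandas 2.3.3, numpy 2.4.6 and matplotlib 3.10.9.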

Additional observations from a re-analysis of the deposited data

Results flagged for a closer look

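Each of the 21 named tiles and genome-wide values and each of the 24 windows was examined for an XO library far from the other 3 (Dixon's test at the 95% level), 45 sets of 4 values in all. Chance alone gives such a value in about 1 set of 20, and 3 were found. At the Gpr1 window XO 6 stood at 34.2%, where the other XO libraries were between 1.29% and 6.67%. At the Nnat window, an imprinted gene for a membrane proteolipid, XO 6 stood at 56.6%, where the others were between 4.42% and 7.495%. In both windows XO 6 was the XO library nearest to the male iPSC values. At the tile on chromosome 6 near Gng12, XO 9 stood at 80.6% from 31 reads, below 3 values that lay within a point of each other.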

How the results depend on the processing

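No paired analysis was possible because the XO libraries (3, 5, 6, 9) and the male iPSC libraries (1, 2, 4) share no replicate number. Alternatives for read share, CpG weight and dispersion were added after seeing the data.

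The genome-wide difference was 3.09 points with all reads pooled and at most 1.69 with other tile choices or XO sets, and ran from -0.629 to 2.08 with single libraries left out, turning negative without XO 3 (-0.475) and male iPSC 1 (-0.629).

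Calls higher and lower in XO were 0 and 0 with limma, 1 and 0 with reads scaled to 100, 258 and 34 over 11 libraries, 19 and 2 at 30 reads, 16 and 2 at 5 CpGs, 20 and 3 on CpGs read in each library, 0 and 0 without very deep CpGs, 5 and 1 with XO 3 and 9 left out, and 0 and 0 with XO 3, 5 and 9 left out. Calls of 20 points numbered 28 and 8. The numbers were 40 and 7 for tiles with a read share within 2-fold, 37 and 7 with the dispersion prior following reads, and 41 and 8 with tiles shifted by 500 bases. Leaving out 1 library gave 1 to 19 higher and 0 to 3 lower calls. Of the 258, 38 were among the 44.

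Non-overlapping tiles higher and lower numbered 529 and 193 at 30 reads, 1106 and 526 at 5 CpGs, 651 and 191 at 20 points, 4997 and 1807 with XO 3 and 9 left out, and 10394 and 3510 with XO 3, 5 and 9 left out. They ran from 2286 to 6086 and from 959 to 3649 with single libraries left out.

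The imprinted difference ran from -28.8 to -20.4 points with single libraries left out, and was -8.72 with XO 6 alone and -17.8 over the 11 windows with 30 reads.

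Signs turned at the chromosome 6 tile near Gng12 (-3.14) and the chromosome 8 tile near Mfap3l (1.36) without very deep CpGs, at the chromosome 18 tile on the 1 CpG read in each library (-9.96), at Rasgrf1 without XO 9 (0.86, with -7.66 to 0.86 over the libraries left out in turn), and at Meg3 without XO 5 (0.77) or male iPSC 2 (3.23, with -26.1 to 3.23). Among the alternatives of the 16 named called tiles, 152 kept the direction and lost the call and 52 kept both, and the cause was not tested. XO 9 limits depth: the median tile held 22 reads there.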
